A study of Homo sapiens with 6 samples.

Results

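Hemopexin is the plasma protein that binds free heme, and LRP1 is the receptor that takes up the heme and hemopexin complex. The genes described here are hemopexin (HPX), haptoglobin (HP) and 8 genes of the low density lipoprotein (LDL) receptor family and its chaperone: LRP1, LRP4, LRP5, LRP6, LRP8, LRP10, LRPAP1 and SORL1. They were chosen by name, with earlier results of these data known, and all 10 were found among the 33514 gene symbols of the tables. RNA sequencing was done on PC3 cells, an established line from a bone metastasis of human prostate cancer, grown in RPMI medium with 10% serum. There were 3 groups of 2 libraries: cells given 50 µM heme for 2 h, cells given 50 µM heme for 4 h, and untreated control cells. No time is given for the controls, and the same control group serves both heme times. Whether replicates came from separate cultures is not stated in the labels. The p-values therefore cover only library-to-library spread, possibly of technical origin.

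Heme, an iron held in a porphyrin ring, carries oxygen in hemoglobin, and free heme is toxic to cells. Hemopexin is secreted mainly by the liver and holds heme in the circulation until LRP1 internalises it. Haptoglobin does the same for hemoglobin, through the receptor CD163. LRP1 is a very large endocytic receptor that also clears proteases, protease inhibitors and matrix proteins. LRP5 and LRP6 are co-receptors for Wnt ligands, LRP4 binds agrin and LRP8 binds reelin. LRP10 is a distant, smaller relative that traffics between the Golgi and endosomes. SORL1 joins LDL receptor repeats to a VPS10 sorting domain and sorts cargo between endosomes and the Golgi. LRPAP1 is the chaperone that keeps these receptors from binding ligands while they fold in the endoplasmic reticulum.

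Gene counts summed to 53129375 in the shallowest library and 55537611 in the deepest, and 16209 genes passed the filter on low counts, the 10 genes among them. Values are CPM, counts scaled to a common library size with TMM factors, and changes are log2 fold changes with their standard error (SE). Adjusted p-values are from edgeR's quasi-likelihood test over all tested genes, with a threshold of 0.05 and n = 2 libraries per group. HMOX1, the heme-degrading enzyme, served as the check that heme reached the cells. It averaged 389 ± 87.5 CPM at 2 h and 362 ± 28.8 CPM at 4 h, against 10.9 ± 0.721 CPM in controls (SD). The epithelial keratins KRT8 and KRT18 and the adhesion gene EPCAM were at 277 CPM or more in every library. The prostate genes KLK3 and FOLH1 were at 0 counts throughout, a floor of 0.0565 CPM (3 counts) in the shallowest library. The hemoglobin genes HBB, HBA1 and HBA2 were also at 0 in every library. The 2 h libraries differed more from each other (chi-square of 34.2 per gene) than the 4 h libraries (22.8) or the controls (9.11).

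Promoter windows from RefSeq (build GRCh38.p14), 250 bases before to 50 after the gene start, were at hand for 7 of the 10 genes, and HP, LRP4 and LRP6 were not among them. The 5 shown belong to hemopexin, its receptor and 3 other genes that changed at 2 h. They are shown 5′ to 3′ on the strand of the gene. The RefSeq start of HPX lies inside the span that GENCODE 29 gives the gene. Capitals mark matches, on either strand, to the letters TGANTCA (AP-1), TGACNNNGC (the antioxidant response core read by NRF2 and BACH1), TTCNNNGAA (STAT), TTGCNNAA (C/EBP), GGGCGG (GC box) and CACGTG (E-box). They also mark G-run motifs, 4 runs of at least 3 G that are 1 to 7 bases apart, the letter pattern from which G-quadruplexes can fold. The title of the series names heme and DNA G-quadruplexes.
HPX, chr11:6440938-6441237, minus strand: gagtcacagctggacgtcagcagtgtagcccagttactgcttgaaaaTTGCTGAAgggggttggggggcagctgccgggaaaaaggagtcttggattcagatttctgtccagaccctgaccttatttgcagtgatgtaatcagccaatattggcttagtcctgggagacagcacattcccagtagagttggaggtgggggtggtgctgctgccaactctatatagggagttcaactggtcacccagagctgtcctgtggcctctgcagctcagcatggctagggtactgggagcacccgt
LRP1, chr12:57128233-57128532, plus strand: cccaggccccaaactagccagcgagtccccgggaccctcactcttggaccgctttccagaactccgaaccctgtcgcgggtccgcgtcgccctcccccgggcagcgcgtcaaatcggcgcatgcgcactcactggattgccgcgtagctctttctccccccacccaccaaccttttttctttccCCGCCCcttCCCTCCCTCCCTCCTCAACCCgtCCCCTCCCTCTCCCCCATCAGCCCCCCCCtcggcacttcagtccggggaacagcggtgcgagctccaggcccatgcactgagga
LRP5, chr11:68312341-68312640, plus strand: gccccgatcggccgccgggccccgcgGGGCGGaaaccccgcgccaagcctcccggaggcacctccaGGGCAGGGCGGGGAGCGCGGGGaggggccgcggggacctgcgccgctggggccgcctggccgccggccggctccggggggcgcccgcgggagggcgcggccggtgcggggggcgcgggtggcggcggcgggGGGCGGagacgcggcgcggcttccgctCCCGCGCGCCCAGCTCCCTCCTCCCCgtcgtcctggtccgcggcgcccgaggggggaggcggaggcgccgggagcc
SORL1, chr11:121452064-121452363, plus strand: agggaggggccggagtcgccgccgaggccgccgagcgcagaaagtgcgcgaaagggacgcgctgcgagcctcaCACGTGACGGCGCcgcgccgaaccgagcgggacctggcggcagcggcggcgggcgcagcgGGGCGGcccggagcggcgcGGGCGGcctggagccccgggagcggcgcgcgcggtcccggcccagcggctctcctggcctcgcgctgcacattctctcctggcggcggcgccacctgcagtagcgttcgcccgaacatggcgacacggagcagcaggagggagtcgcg
LRP8, chr1:53328021-53328320, minus strand: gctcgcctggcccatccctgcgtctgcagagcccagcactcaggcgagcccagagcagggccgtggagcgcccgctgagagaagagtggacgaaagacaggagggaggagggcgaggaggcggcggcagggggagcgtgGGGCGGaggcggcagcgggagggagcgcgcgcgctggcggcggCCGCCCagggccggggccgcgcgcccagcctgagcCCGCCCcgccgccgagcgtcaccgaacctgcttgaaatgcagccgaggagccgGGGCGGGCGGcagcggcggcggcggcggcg

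The windows differed in base composition. GC content was 54% in HPX, 56.3% in LRP10, 67% in LRP1, 70.7% in LRPAP1, 78% in SORL1, 78.3% in LRP8 and 86.7% in LRP5, beside a median of 58.7% over 35116 promoters. G-run motifs stood in LRP1, LRP5 and LRPAP1, that is 3 of 7 windows, and in 25% of all promoters. The 2 motifs of LRP1 lie on the strand opposite to the gene, just before its start. In LRP5 the first G-run motif includes a GC box. The GC box was found in 6 of 7 windows, all but that of HPX, and in 45% of all promoters. HPX held the 1 match to the C/EBP letters (10.5% of all promoters). SORL1 held an E-box (7.26% of all promoters) that overlaps a match to the antioxidant response core (13.3%). The AP-1 and STAT letters were in none of the 7 windows, and in 7.71% and 7.66% of all promoters. Such matches describe letters in these windows only.

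In level, the 10 genes covered a wide range. Set on CPM per kilobase of merged exons, the order was LRP10, LRP5, LRPAP1, LRP8, LRP6, SORL1, LRP1, LRP4, HPX and HP. LRP10 ran from 34.9 to 56.5 over the 6 libraries and LRP5 from 24 to 37.2, with LRP10 above LRP5 in every library. LRPAP1 (7.07 to 9) and LRP8 (3.81 to 9.5) overlapped, and so did LRP6 (2.96 to 4.3), SORL1 (2.2 to 5.08) and LRP1 (2.23 to 5.28). LRP6 lay above SORL1 and LRP1 in every control and 4 h library, and below both in each 2 h library. SORL1 and LRP1 changed order between the replicates of every group. LRPAP1 lay above LRP8 in every library but 4 h replicate 2. LRP4 ran from 0.135 to 0.239 and overlapped HPX (0.0584 to 0.267), while HP lay lowest (0.0178 to 0.0548). In control cells LRP10 stood above 91.2% of 16094 tested genes with a known length, LRP1 above 43.1%, HPX above 6.21% and HP above 2.52%. Over the longest transcript in place of merged exons, LRP8 stood above LRPAP1 and HPX above LRP4, and LRP6 moved from rank 5 to rank 7.

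**Figure D1:**
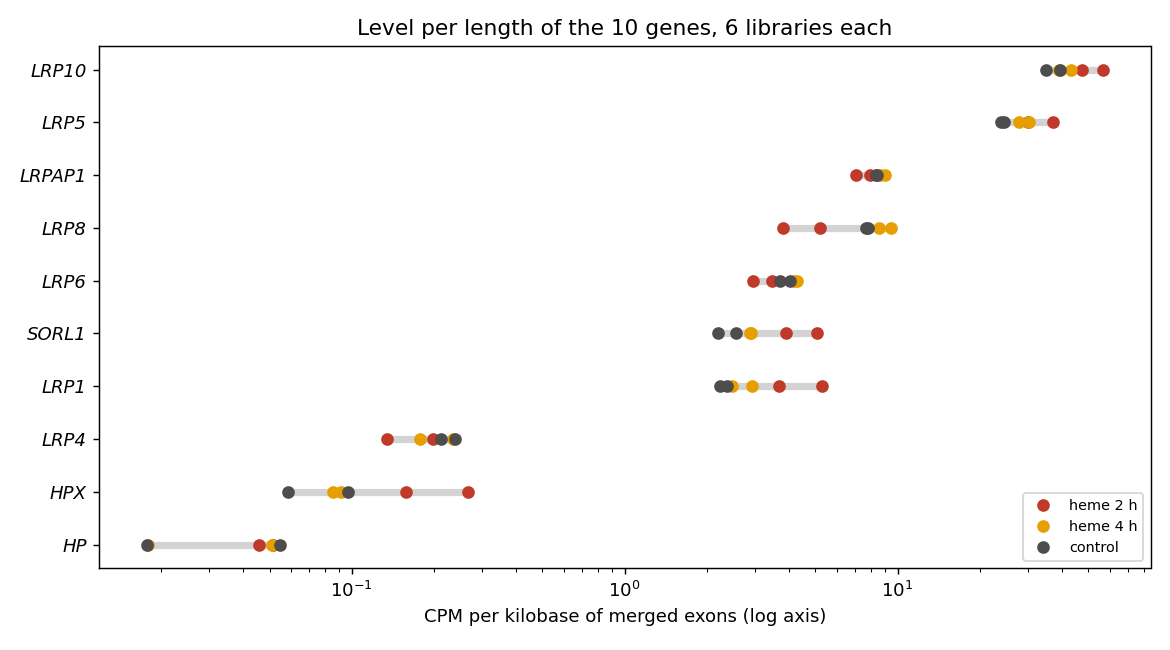
Level of each gene in CPM per kilobase of merged exons (log axis), 1 point per library, coloured by group, with the grey bar spanning the 6 libraries. LRP10 and LRP5 lie highest, from 24 to 56.5, and LRP4, HPX and HP lowest, at 0.267 or below.

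After 2 h of heme, 6 of the 10 genes passed the test. HPX, LRP1, LRP5, LRP10 and SORL1 rose and LRP8 fell. Among all tested genes 31.7% passed at 2 h, 15.9% higher and 15.8% lower, compared with 60% of the 10 genes. In bulk RNA, a change in a few cells and a smaller one in all cells cannot be told apart. The median log2 fold change of the 10 genes was 0.44, beside 0.02 for all tested genes. The libraries of the 2 groups did not overlap for 9 of the 10 genes, against 67.8% of all tested genes. In all 6 genes that passed, replicate 1 of the 2 h group lay further from the control mean than replicate 2.

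**Figure D2:**
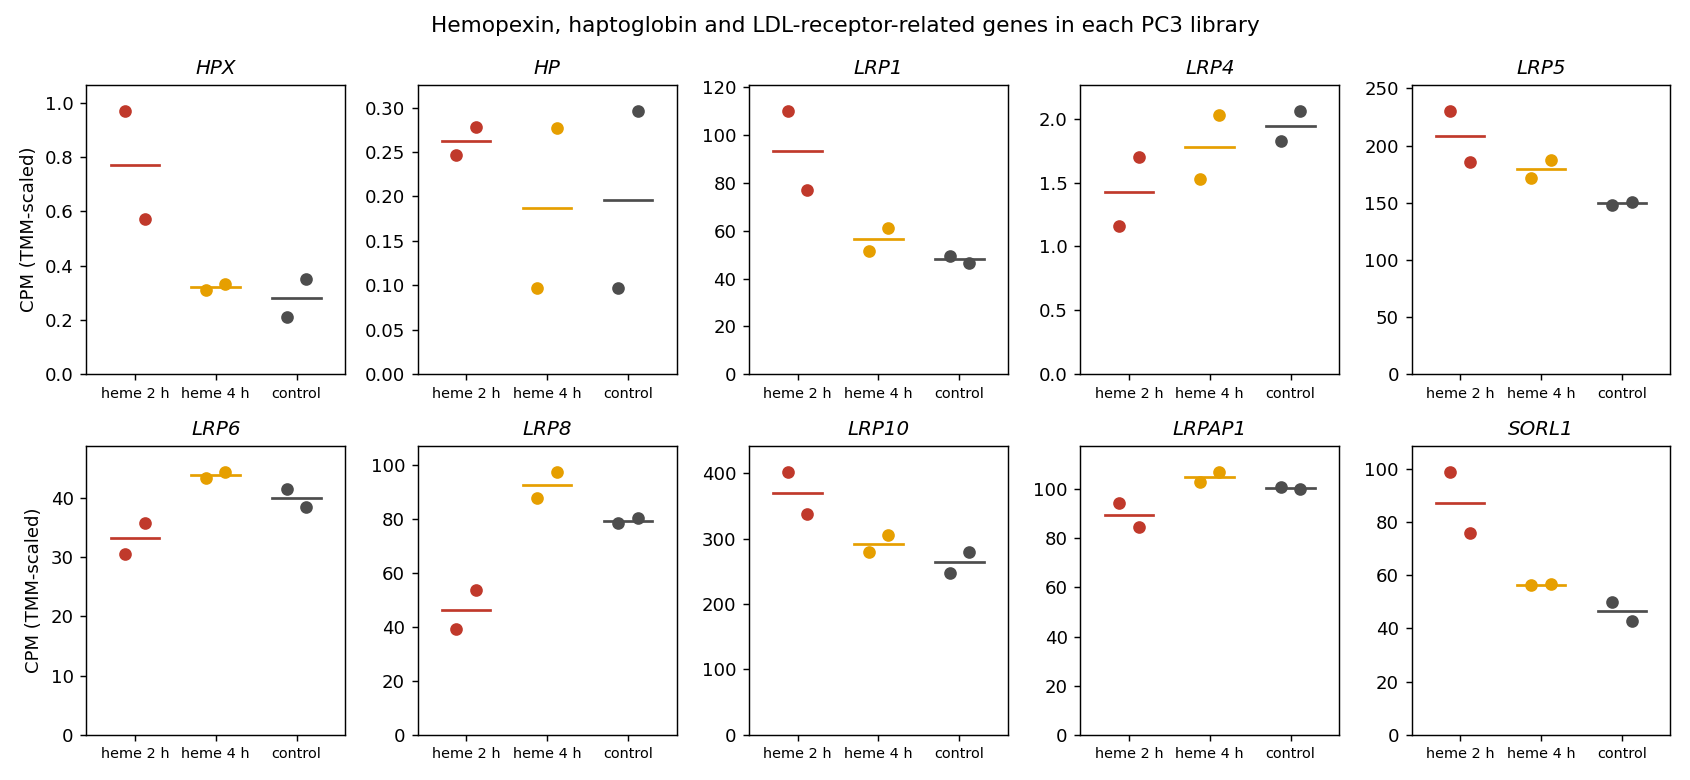
CPM of each gene in every library (points) with the mean of each group (line), from left to right heme 2 h, heme 4 h and control, on axes that start at 0. LRP1 and SORL1 were higher in both 2 h libraries than in any other, and LRP8 was lower in both.

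Hemopexin itself was scarce. HPX, on chromosome 11 from 6431049 to 6442617 (minus strand, ENSG00000110169.10, GENCODE 29 on GRCh38), had 55 and 33 counts in the 2 h libraries, against 11 and 19 in controls. On the CPM scale these were 0.97 and 0.573, against 0.212 and 0.352. Both 2 h libraries lay above both controls, and HPX rose 2.71-fold (log2 1.44, SE 0.46, edgeR adjusted p = 0.0285). The 95% interval of the log2 change ran from 0.45 to 2.43. The call rested on few reads: it was lost without control replicate 1 (log2 1.12, edgeR adjusted p = 0.217), without control replicate 2 (log2 1.83, edgeR adjusted p = 0.0503) and without 2 h replicate 1 (log2 1.01, edgeR adjusted p = 0.238). DESeq2 did not call it either (log2 1.43, DESeq2 adjusted p = 0.059). At 4 h HPX had 16 and 18 counts, which overlapped the controls (log2 0.18, SE 0.51, edgeR adjusted p = 1).

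No liver marker passed the test with it. HPX is a liver gene, so 10 hepatocyte markers were read beside it. Of these, APOA2 and TTR had 0 counts in every library and APOA1, APOH, AHSG, TF and APOC3 had at most 13. Albumin (ALB) had 31 and 42 counts at 2 h, against 21 and 18 in controls, and the fibrinogen gene FGB had 9 and 7, against 18 and 10. SERPINA1, which other epithelia also express, made up nearly all of the summed marker level, which ran from 101 to 130 CPM at 2 h, from 99.5 to 106 CPM at 4 h and was 99.4 CPM in both controls. Only ALB, FGB and SERPINA1 had enough counts to be tested, and 0 of these 3 passed, beside 31.7% of all tested genes. The part of these markers in the HPX result was not tested.

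Haptoglobin showed no detectable change. HP, on chromosome 16 from 72054592 to 72061055 (plus strand, ENSG00000257017.8), had 14 and 16 counts at 2 h and 5 and 15 at 4 h, against 5 and 16 in controls. The controls alone spanned the range of all heme libraries. The log2 change was 0.41 at 2 h (SE 0.64, edgeR adjusted p = 0.67), with a 95% interval from -0.97 to 1.78, so that neither a rise nor a fall could be told at this depth. HP lies within the span of TXNL4B, on the other strand and with no shared exon bases, and is near-identical in parts to HPR, which had at most 2 counts per library. TXNL4B fell at 2 h (log2 -0.51, edgeR adjusted p = 0.00996).

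Other genes of heme and hemoglobin capture were few. CD163, the hemoglobin and haptoglobin receptor gene, had 0 counts in every library. In this list 6 of 12 genes were tested and 3 rose at 2 h: HMOX1, the endosomal heme transporter SLC48A1 and A1BG. That is 50% of those tested, beside 31.7% of all tested genes. SLC48A1 averaged 41.4 CPM at 2 h, against 27 CPM in controls (log2 0.62, SE 0.125, edgeR adjusted p = 0.00207). A1BG, a plasma protein gene, had 18 and 11 counts at 2 h, against 2 and 4 in controls (log2 2.12, SE 0.78, edgeR adjusted p = 0.0499). The call of SLC48A1 was lost without control replicate 1, and that of A1BG in 11 of 14 alternatives, DESeq2 among them. No gene of the list fell.

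The acute phase response is the known route by which the liver raises HPX and HP, through interleukin 6, STAT3 and C/EBP factors. Of 20 genes in that list 12 were tested, and 3 rose and 0 fell at 2 h. That is 25%, beside 31.7% of all tested genes. CEBPB, a C/EBP factor, averaged 215 CPM at 2 h, against 76 CPM in controls (log2 1.5, SE 0.16, edgeR adjusted p = 2.17e-05). CEBPD, its relative, averaged 14.8 CPM, against 6.74 CPM (log2 1.13, SE 0.20, edgeR adjusted p = 8.1e-04). IL6, the cytokine itself, averaged 740 CPM, against 537 CPM (log2 0.46, SE 0.10, edgeR adjusted p = 0.00314). STAT3 had 0 counts in every library. Among the acute phase genes that were tested and not called, named here after their values were seen, SAA1 averaged 38 CPM at 2 h, against 38.3 CPM in controls (edgeR adjusted p = 0.964), SAA2 7.7 CPM, against 5.64 CPM (edgeR adjusted p = 0.0561), and LCN2 1620 CPM, against 1710 CPM (edgeR adjusted p = 0.614). Others of the list, ORM1, ORM2, CRP, FGA, HAMP and SERPINA3 had at most 3 counts in any library. The median log2 change of the list was 0.11, beside 0.02 for all tested genes.

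The hemopexin receptor gene rose clearly. LRP1, on chromosome 12 from 57128493 to 57213351 (plus strand, ENSG00000123384.13), had 110 and 76.9 CPM in the 2 h libraries, against 49.6 and 46.5 CPM in controls. Both 2 h libraries lay well above both controls. The change was 1.95-fold (log2 0.96, SE 0.15, edgeR adjusted p = 2.86e-04). At 4 h LRP1 had 51.4 and 61.3 CPM, just above the controls, and was not called (log2 0.23, SE 0.15, edgeR adjusted p = 1). STAT6 runs against LRP1 on the other strand, shares 59 bases of exon with it, 0.283% of its exon length, and also rose at 2 h (log2 0.56, edgeR adjusted p = 0.00589). The strand setting of the counting is not given, so reads in those shared bases cannot be told apart. The antisense gene LRP1-AS had 0 counts.

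LRP1 is rich in G and C, as are some of the other genes that rose. Transcript GC content was 60.1% for LRP1, 62.8% for LRP5, 57.1% for LRP10 and 55.4% for HPX, against a median of 48.5% over tested genes. For SORL1 it was 47.7%, for LRP8 47.3% and for LRP6 40.2%. Correcting each library for transcript GC content and length, an alternative added after the data were seen, left LRP1 higher at 2 h by log2 0.56 (edgeR adjusted p = 0.00224). It left LRP10 at log2 0.24 (edgeR adjusted p = 0.0296) and ended the call of LRP5 (log2 0.17, edgeR adjusted p = 0.113). It also brought LRPAP1 (log2 -0.41, edgeR adjusted p = 6.2e-04) and LRP6 (log2 -0.23, edgeR adjusted p = 0.0261) past the threshold as lower. GC content and length accounted for 19.6%, 20.1% and 24.3% of the variance of a library's log2 deviations from the gene means in replicate 1 of the 2 h, 4 h and control groups, and for 5.1%, 7.16% and 8.87% in replicate 2. Such a correction also removes any response to heme that goes with GC content.

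LRPAP1, the receptor chaperone, did not pass the test. LRPAP1, on chromosome 4 from 3503597 to 3532559 (minus strand, ENSG00000163956.11), had 94.5 and 84.4 CPM at 2 h, against 101 and 99.9 CPM in controls. Both 2 h libraries lay below both controls, by a small margin (log2 -0.16, SE 0.10, edgeR adjusted p = 0.219). At 4 h it had 103 and 107 CPM, above both controls (log2 0.07, SE 0.10, edgeR adjusted p = 1). Per read of LRPAP1 there were 1.16 and 0.911 reads of LRP1 in the 2 h libraries, against 0.492 and 0.466 in controls (exact permutation p = 0.333, two-sided, the smallest that 2 against 2 allows). This ratio is free of library scaling but is not corrected for GC content. MESD, the gene of a chaperone for LRP5 and LRP6, fell at 2 h (log2 -0.32, SE 0.10, edgeR adjusted p = 0.0258), a call that was lost without either control or without 2 h replicate 2.

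Ligands of LRP1 passed the test, counted in either direction, about as often as all genes. Of 28 ligand genes with a row, 25 were tested, and 7 rose and 2 fell at 2 h, that is 36%, beside 31.7% of all tested genes. The median log2 change was 0.24, and the 7 became 5 to 11 when 1 library was left out. CTGF, a secreted matrix protein, averaged 495 CPM at 2 h, against 78.7 CPM in controls (log2 2.65, SE 0.14, edgeR adjusted p = 2.92e-08). The growth factor PDGFB averaged 131 CPM, against 75.2 CPM (log2 0.80, SE 0.10, edgeR adjusted p = 8.15e-05). Thrombospondin 1, THBS1, averaged 1870 CPM, against 1220 CPM (log2 0.62, SE 0.09, edgeR adjusted p = 1.39e-04). The matrix protease gene MMP9 (log2 1.03, SE 0.20, edgeR adjusted p = 0.00142) followed. The 2 that fell were the chaperones HSP90AA1 (log2 -0.67) and CALR (log2 -0.29). The call of CALR was lost without control replicate 1 and also without control replicate 2.

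SORL1 changed almost as much as LRP1. SORL1, on chromosome 11 from 121452203 to 121633693 (plus strand, ENSG00000137642.12), had 98.7 and 75.7 CPM at 2 h, against 50 and 42.7 CPM in controls. Both 2 h libraries stood above both controls, and the change was 1.88-fold (log2 0.91, SE 0.13, edgeR adjusted p = 1.67e-04). At 4 h the libraries held 56.1 and 56.5 CPM, still above both controls but not called (log2 0.28, SE 0.13, edgeR adjusted p = 1). SORL1 belongs also to the VPS10 sorting receptors. Of 16 tested genes of those receptors, the retromer and its adaptors, 4 rose and 3 fell at 2 h. That is 43.8%, beside 31.7% of all tested genes. The receptors SORCS2 (log2 0.75, SE 0.13, edgeR adjusted p = 8.21e-04) and SORT1 (log2 0.49, SE 0.10, edgeR adjusted p = 0.00217) rose, as did the adaptors PACS1 (log2 0.35) and GGA1 (log2 0.31). The sorting nexins SNX5 (log2 -0.33) and SNX6 (log2 -0.31) and the retromer subunit VPS26A (log2 -0.35) fell. Apart from SORCS2 and SORT1, these calls were lost without control replicate 1 and also without control replicate 2, and SORT1 was lost without control replicate 1.

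The Wnt co-receptor genes lay on opposite sides of the controls at 2 h. LRP5, on chromosome 11 from 68312609 to 68449275 (plus strand, ENSG00000162337.11), had 230 and 186 CPM at 2 h, against 148 and 151 CPM in controls, with no overlap. It rose 1.39-fold (log2 0.47, SE 0.11, edgeR adjusted p = 0.00457). LRP6, on chromosome 12 from 12116025 to 12267012 (minus strand, ENSG00000070018.8), had 30.6 and 35.8 CPM at 2 h, against 41.6 and 38.4 CPM in controls. Its libraries did not overlap either, but on the low side, and it was not called (log2 -0.27, SE 0.12, edgeR adjusted p = 0.0969). Within a library there were 7.5 and 5.19 reads of LRP5 per read of LRP6 at 2 h, against 3.57 and 3.93 in controls. The log2 difference was 0.74 (exact permutation p = 0.333, two-sided, the smallest possible here). This ratio is not corrected for GC content, 62.8% in LRP5 and 40.2% in LRP6. With the GC and length correction LRP5 was at log2 0.17 (edgeR adjusted p = 0.113) and LRP6 at log2 -0.23 (edgeR adjusted p = 0.0261). LRP5L, a partial copy of LRP5, fell at 2 h (log2 -0.70, edgeR adjusted p = 0.00487), and reads shared between these copies could have been split between them. At 4 h LRP5 had 172 and 187 CPM and LRP6 43.3 and 44.4 CPM, each above its controls and neither called.

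Some inhibitors and ligands of the Wnt co-receptors passed the test at 2 h. Counted in either direction, the shares of the larger lists were near that of all genes. By direction, most calls in the larger lists were rises, while 15.9% of all tested genes rose and 15.8% fell. Of 16 inhibitor genes only 5 were tested, and 2 fell and 1 rose, that is 60% of a short list. DKK1, a secreted inhibitor that binds LRP5 and LRP6, averaged 787 CPM at 2 h, against 1360 CPM in controls (log2 -0.79, SE 0.13, edgeR adjusted p = 3.98e-04). ZNRF3, which removes Frizzled receptors from the cell surface, averaged 17.4 CPM, against 37.1 CPM (log2 -1.09, SE 0.13, edgeR adjusted p = 4.01e-05). KREMEN1, a receptor for DKK1, rose (log2 0.34, SE 0.12, edgeR adjusted p = 0.0434), a call that was lost without any one of the control libraries or 2 h replicate 1. Of 27 tested Wnt ligands and receptors 7 rose and 1 fell, that is 29.6%, beside 31.7% of all tested genes. The 7 became 3 to 9 when 1 library was left out. Those that rose with the smallest p were the receptor genes FZD2 (log2 1.31, SE 0.18) and FZD7 (log2 1.15, SE 0.18) and the ligand genes WNT4 (log2 1.68, SE 0.30) and WNT5A (log2 0.56, SE 0.12), and the receptor gene FZD5 fell (log2 -0.45, SE 0.12). The call of FZD5 was lost without control replicate 1 and that of WNT5A without control replicate 2. Of 23 cytoplasmic and nuclear Wnt components 7 rose and 0 fell, that is 30.4%, and the 7 became 1 to 7 without 1 library. They were led by the kinase gene TNIK (log2 1.24, SE 0.24), the scaffold gene DVL2 (log2 0.55, SE 0.12), the kinase gene GSK3B (log2 0.37) and the transcription factor gene TCF7L2 (log2 0.485). Of these 4, only the call of TNIK held without control replicate 1.

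LRP8 was the 1 gene of the 10 that was called lower at 2 h. LRP8, on chromosome 1 from 53242364 to 53328070 (minus strand, ENSG00000157193.16), had 39.2 and 53.5 CPM at 2 h, against 78.5 and 80.2 CPM in controls. Both 2 h libraries were far below both controls, and the level was 0.584 of that in controls (log2 -0.78, SE 0.13, edgeR adjusted p = 5.82e-04). At 4 h it had 87.9 and 97.4 CPM, above both controls but not called (log2 0.22, SE 0.13, edgeR adjusted p = 1). Reads of LRP1 per read of LRP8 were 2.81 and 1.44 at 2 h and 0.585 and 0.629 at 4 h, against 0.632 and 0.58 in controls. Both 2 h ratios lay above all others (exact permutation p = 0.333 for 2 h against control, two-sided, the smallest possible here). They count reads and are not levels per length, nor are they corrected for GC content. VLDLR, the gene of the other reelin receptor, moved the opposite way to LRP8: it averaged 1.81 CPM at 2 h, against 0.614 CPM in controls (log2 1.56, SE 0.31, edgeR adjusted p = 0.00193).

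LRP10 rose and LRP4 was not called. LRP10, on chromosome 14 from 22871613 to 22881580 (plus strand, ENSG00000197324.8), had 402 and 338 CPM at 2 h, against 248 and 280 CPM in controls. The groups did not overlap (log2 0.49, SE 0.11, edgeR adjusted p = 0.00349), but the call was lost without control replicate 1 (log2 0.40, edgeR adjusted p = 0.0717). At 4 h LRP10 had 279 and 306 CPM, overlapping the controls (log2 0.15, SE 0.11). LRP4, on chromosome 11 from 46856868 to 46918642 (minus strand, ENSG00000134569.9), had 1.16 and 1.7 CPM at 2 h, against 1.83 and 2.06 CPM in controls. It lay lower in both 2 h libraries, from 66 and 98 counts against 95 and 111 (log2 -0.44, SE 0.27, edgeR adjusted p = 0.238). At 4 h LRP4 had 1.53 and 2.03 CPM, overlapping the controls. LRP4-AS1, antisense to it, covers 5.99% of its exon length and had between 1 and 16 counts.

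**Figure D3:**
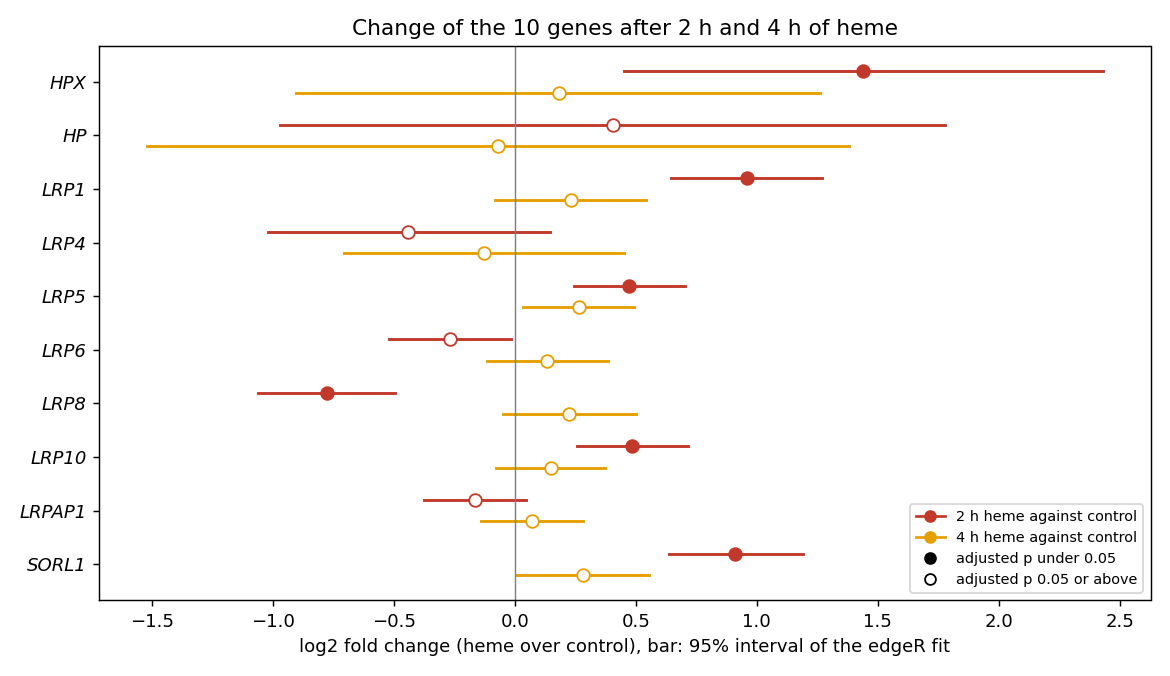
Log2 fold change of each gene after 2 h and 4 h of heme over control, with the 95% interval of the fit as a bar; filled points have an edgeR adjusted p under 0.05. At 2 h 6 points are filled, from -0.78 for LRP8 to 1.44 for HPX, and at 4 h none is.

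Other receptors of the family were VLDLR, which rose as given above, and LRP12, which fell at 2 h (log2 -0.36, SE 0.11, edgeR adjusted p = 0.0273), a call that was lost without either control or 2 h replicate 1. LRP2 had at most 2 counts and LRP1B at most 19, so neither was tested. Of 20 tested genes for adaptors, sorting and shedding, 4 rose and 1, MESD, fell at 2 h. That is 25%, beside 31.7% of all tested genes. Those that rose were FURIN, the protease that cuts LRP1 to its mature form (log2 0.65, SE 0.12, edgeR adjusted p = 0.00105), the adaptor NUMB (log2 0.41) and the membrane proteases ADAM17 (log2 0.41) and BACE1 (log2 0.34). Without control replicate 1 the calls of NUMB and BACE1 were lost, and without control replicate 2 those of NUMB, BACE1 and ADAM17.

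**Figure D4:**
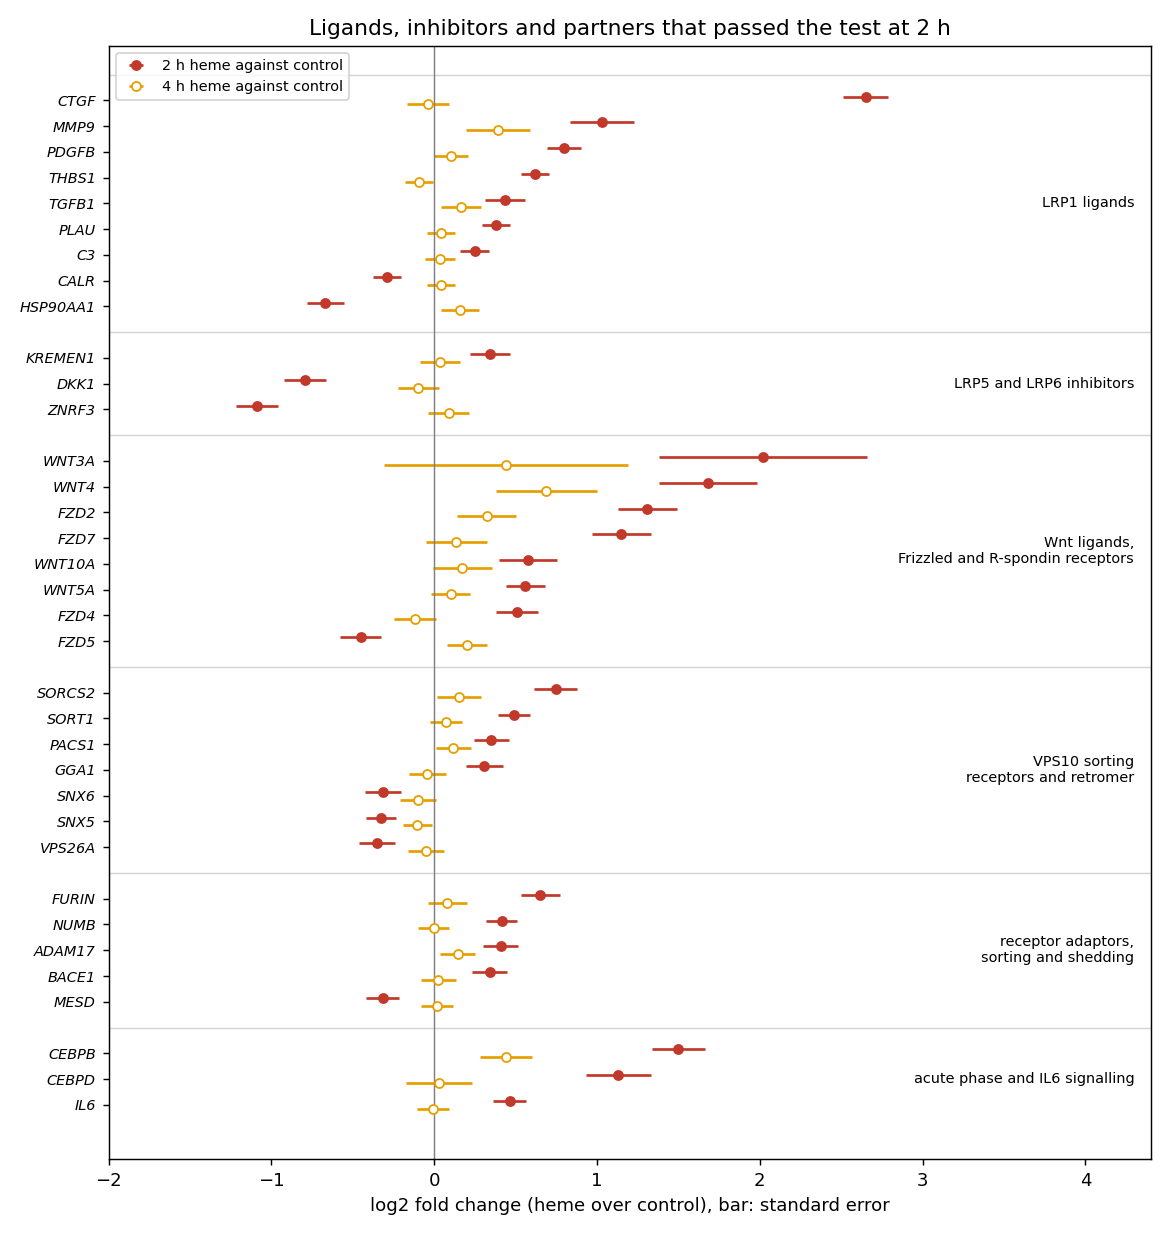
Log2 fold change over control, with its standard error, of the listed ligands, inhibitors and partners that passed the test at 2 h; filled points are 2 h and open points 4 h of heme. CTGF has the largest log2 change at 2 h, 2.65, and no open point passed the test.

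After 4 h of heme none of the 10 genes passed the test against control, in edgeR or in DESeq2. At an unadjusted edgeR p under 0.05 there were 2, LRP5 and SORL1. In all tested genes 0.0308% passed, 0.0247% higher and 0.00617% lower, that is 5 genes, HMOX1 among them. The 4 h and control libraries did not overlap for 6 of the 10 genes, against 34.4% of all tested genes. This comparison shares the control libraries with that of 2 h. For LRP1 the 95% interval of the log2 change at 4 h ran from -0.08 to 0.54, and for SORL1 from 0.00483 to 0.56, and the changes seen at 2 h lay outside both. In the ligand, receptor, Wnt and sorting lists the count called at 4 h was 0.

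Between 4 h and 2 h of heme, 5 of the 10 genes differed. This comparison shares the 2 h libraries with that of 2 h against control. LRP8 was higher at 4 h than at 2 h, and LRP6 too, while LRP1, LRP10 and SORL1 were lower. In all tested genes 28.1% passed, 14.0% higher and 14.1% lower. LRP8 had 87.9 and 97.4 CPM at 4 h, against 39.2 and 53.5 CPM at 2 h (log2 1.0, SE 0.13, edgeR adjusted p = 8.5e-05), and this call held under every alternative tried. LRP1 had 51.4 and 61.3 CPM at 4 h, against 110 and 76.9 CPM at 2 h (log2 -0.73, SE 0.15, edgeR adjusted p = 0.00197). SORL1 had 56.1 and 56.5 CPM, against 98.7 and 75.7 CPM (log2 -0.63, SE 0.13, edgeR adjusted p = 0.00226). In each of these 3 genes the groups did not overlap, nor did they in 7 of the 10 genes, against 62.3% of all tested genes. LRP6 had 43.3 and 44.4 CPM at 4 h, against 30.6 and 35.8 CPM at 2 h (log2 0.40, SE 0.12, edgeR adjusted p = 0.0199). LRP10 had 279 and 306 CPM, against 402 and 338 CPM (log2 -0.34, SE 0.11, edgeR adjusted p = 0.0282).

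Several of these calls depended on single libraries. The LRP1 call between 4 h and 2 h was lost without 4 h replicate 1 (log2 -0.60, edgeR adjusted p = 0.0585). That of LRP6 was lost without 2 h replicate 1 (log2 0.30, edgeR adjusted p = 0.0884), without 4 h replicate 1 (log2 0.42, edgeR adjusted p = 0.0806) and without 4 h replicate 2 (log2 0.41, edgeR adjusted p = 0.0695). That of LRP10 was lost without control replicate 2 (log2 -0.31, edgeR adjusted p = 0.0556), 2 h replicate 1 (log2 -0.20, edgeR adjusted p = 0.187), 4 h replicate 1 (log2 -0.27, edgeR adjusted p = 0.208) or 4 h replicate 2 (log2 -0.38, edgeR adjusted p = 0.0614). It was also lost with the GC and length correction (log2 -0.16, edgeR adjusted p = 0.119) and in a fit of these 2 groups alone (log2 -0.32, edgeR adjusted p = 0.0524). HPX was lower at 4 h than at 2 h in both libraries, with log2 -1.26 (SE 0.46) just short of the threshold (edgeR adjusted p = 0.0521). It passed under 5 of the 14 alternatives: upper-quartile scaling, no filter, these 2 groups alone, without 2 h replicate 2, and the GC and length correction (edgeR adjusted p from 0.0241 to 0.0488). Of the ligands of LRP1, 2 were higher and 6 lower at 4 h than at 2 h, and the 6 became 3 to 11 when 1 library was left out. In the full fit 32% of the tested ligands were called, beside 28.1% of all tested genes. CTGF, among the 6, averaged 76.6 CPM at 4 h, against 495 CPM at 2 h (log2 -2.69). DKK1 (log2 0.70) and ZNRF3 (log2 1.18) were higher.

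The genes whose profiles over the 6 libraries were most like those of each called gene, among 11930 or 11931 genes with a mean of at least 2 CPM, were picked by Pearson's correlation of log2 CPM. All such correlations were above 0.99. They describe shape and not size, over libraries and scaling factors that all genes share. The closest to HPX was WBP2 (r = 0.9986), which changed by log2 0.53 at 2 h, and MMP24OS and CDC42EP2 came next. LRP1 was closest to TRAF7 (r = 0.9985) and AP3D1. For SORL1 they were THSD4 (r = 0.9974), SRP14-AS1 and TRIB2. LRP5 had BCR, TSKU and TENT5B, and LRP10 had MED24, NECTIN2 and WDTC1. LRP8 was closest to JPH1 (r = 0.9968), KAT6A and UHRF1, and LRP6 to SHPRH, CDH11 and HHEX. Among the 10 genes themselves, over the same 6 libraries, HPX and LRP10 correlated most (r = 0.978). LRP1 and SORL1 (r = 0.976), LRP6 and LRP8 (r = 0.969) and LRP1 and LRP10 (r = 0.956) came next.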

How the data were processed

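RNA of 6 PC3 libraries, 2 per group, was prepared with Trizol and Illumina TruSeq, per the labels. The authors deposited unnormalized counts for each gene symbol, in a file per library. Trimmomatic, STAR, SAMtools, deepTools and build hg38 are named in the submitters' processing notes, with no versions, annotation or strand setting in the sources used here. The 5 summary lines of each table, reads with no feature (5.48 to 6.88% of the sum of a table) and ambiguous reads (4.23 to 4.48%) among them, were left out. Counts were tested with edgeR 4.0.16 (R 4.3.3, limma 3.58.1): genes kept by filterByExpr with a minimum count of 10, TMM scaling, and a quasi-likelihood fit of all 6 libraries with 3 residual degrees of freedom. P-values were adjusted by the Benjamini-Hochberg method over 16209 genes. SE is the absolute log2 fold change divided by the root of F. DESeq2 1.42.0, other scalings, no filter, a replicate block, pairwise fits, a 1.5-fold test and fits without each library were the alternatives. The tests were tried on simulated data. Coordinates and lengths are from GENCODE 29 on GRCh38. The genes and lists were chosen with earlier results of these data known. In each list the text names the 4 genes with the smallest p per direction, or all where 5 or fewer were called, and, for each called gene, the 3 genes with the most similar profile. A few of these genes are not reported here.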

Additional observations from a re-analysis of the deposited data

Results flagged for a closer look

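For 5 of the 10 genes the change from control at 4 h of heme differed from that at 2 h. This is by the test of that difference itself (edgeR's quasi-likelihood test), which 28.1% of all tested genes passed. The changes at 2 h and 4 h share the control libraries, so this is the comparison of 4 h with 2 h given above. No control is labelled for either time, so the part of handling and time in these changes was not tested. The change at 4 h minus that at 2 h was log2 1.0 for LRP8, the reelin receptor gene, and log2 0.40 for LRP6, the Wnt co-receptor gene. It was log2 -0.73 for LRP1, the hemopexin receptor gene, log2 -0.63 for the sorting receptor gene SORL1 and log2 -0.34 for LRP10. Of these 5 calls, only that of LRP8 held under every alternative tried. Groups of 2 libraries are too small to single out a library.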

How the results depend on the processing

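Of the 10 genes, 6 were called at 2 h and 5 between 4 h and 2 h. Leaving out 1 library at a time gave 4 to 7 at 2 h, 2 to 7 between 4 h and 2 h (2 without 4 h replicate 1, 3 without 4 h replicate 2), and 0 at 4 h against control throughout. A test against a change of 1.5-fold called 0 at 2 h, with LRP1 (adjusted p = 0.0647) and SORL1 (adjusted p = 0.0679) nearest in edgeR's glmTreat, and 1, LRP8, between 4 h and 2 h. That test asks for more than a difference from no change. No called change of the 10 genes turned its direction under any of the 14 alternatives. Over all genes, 5136 were called at 2 h, with 2321 to 6254 when 1 library was left out and 533 in the 1.5-fold test. Between 4 h and 2 h these were 4558, 2199 to 5819 and 543. At 4 h against control 5 genes were called, and 4 to 16 without 1 library. Of 61 listed genes called at 2 h, 27 were still called without control replicate 1 and 28 without control replicate 2. With the replicate number as a block, 6, 0 and 5 of the 10 genes were called at 2 h, at 4 h and between 4 h and 2 h, and 4809, 6 and 4205 of all genes. Deviations of same-numbered libraries correlated at -0.32 (2 h and control), 0.29 (4 h and control) and -0.20 (4 h and 2 h). Values of mixed sign cannot settle whether the numbers pair the libraries. The variance that went with GC content and length, given above, was larger in replicate 1 than in replicate 2 of every group. Depth limits HPX and HP, with at most 55 counts, where 3 counts are 0.0565 CPM in the shallowest library.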

Other observations

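The agrin gene AGRN, whose product is a ligand of LRP4, averaged 1050 CPM at 2 h, against 816 CPM in controls (log2 0.36, edgeR adjusted p = 0.0337). Of 10 tested genes of reelin and agrin signalling 3 rose at 2 h, the kinase gene FYN (log2 0.49), RAPGEF1 (log2 0.35) and AGRN. The adaptor gene CRKL fell (log2 -0.32). In this list 40% was called, beside 31.7% of all tested genes. These 4 calls were lost without control replicate 1 and also without control replicate 2. Of 15 tested Wnt target genes 3 rose and 4 fell at 2 h, that is 46.7%, beside 31.7% of all tested genes. MYC averaged 1160 CPM at 2 h, against 519 CPM in controls (log2 1.16, edgeR adjusted p = 1.47e-06), and BAMBI (log2 0.62) and TCF7 (log2 0.41) also rose. SP5 (log2 -1.65), CCND1 (log2 -0.32), DKK1 and ZNRF3 fell. The calls of BAMBI, TCF7 and CCND1 were lost without either control.

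Of 7 tested prostate and epithelial markers, TP63 (log2 1.90) and TMPRSS2 (log2 1.22) rose and EPCAM fell (log2 -0.29) at 2 h. That is 42.9%, beside 31.7% of all tested genes. The calls of TMPRSS2, from 81 and 60 counts at 2 h, against 26 and 30 in controls, and of EPCAM were lost without either control or 2 h replicate 1, and that of EPCAM also under upper-quartile scaling and the GC and length correction. Of 3 tested blood cell markers, CD14 rose from few reads, with 145 and 107 counts at 2 h, against 21 and 43 in controls (log2 1.87, edgeR adjusted p = 0.00135). The others were more abundant and not called. CD68 averaged 47.4 CPM at 2 h, against 44.2 CPM in controls, and S100A8 27.3 CPM, against 31.3 CPM. In this list 33.3% was called, beside 31.7% of all tested genes. The part of these markers in the results above was not tested.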
